A study of Homo sapiens with 4 samples.

Results

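Indisulam and palbociclib were compared directly with each other, as single drugs, in the triple-negative breast cancer cell line SUM159. The comparison covered the 11340 genes with a mean of 5 or more CPM over the 2 libraries (CPM is a gene's read count scaled to a common library total), out of 60279 genes listed and 29056 with at least 1 read in any library of the series. Of 53 mitotic genes 42 were higher with indisulam, against 6.62% of all tested genes, and none with palbociclib. Their median log2 ratio of indisulam to palbociclib was 1.68. Some of them, such as NEK2, were under 5 CPM with palbociclib and were tested only because of their indisulam level. Among genes for secreted proteins, CXCL8 was 23.1-fold higher with indisulam, whereas APOE was 34.8-fold and MGP 30.0-fold higher with palbociclib. Of all genes tested, 5922 (52.2%) were measured at a like level in both libraries.

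The series held 4 libraries of this line, 1 each for untreated cells, palbociclib alone, indisulam alone and both drugs together (the combination). Per the labels, cells received palbociclib at 0.5 µM or indisulam at 2 µM for 10 days, and the combination received both. The text on the series gave 2 µM palbociclib, 3 µM indisulam and 16 h, in technical duplicates, and did not say whether the duplicates were pooled, so dose and time remained uncertain. By either account the drugs were given at different concentrations, and each gene's values are those of one dose of either drug. With 1 library a side there was no replicate check and no p-value. A gene was called when its levels differed 2-fold or more and the exact 95% interval of that ratio excluded 1. A gene was at a like level when that interval lay wholly within 1.5-fold in either direction. Intervals are given on the log2 scale as indisulam over palbociclib, so that positive values mean higher with indisulam, and they cover counting error only.

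Palbociclib inhibits CDK4 and CDK6, the kinases that, with D-type cyclins, phosphorylate the retinoblastoma protein and release E2F factors, which switch on genes for DNA replication. Indisulam is an aryl sulfonamide that binds the ubiquitin ligase receptor DCAF15 and brings it to the splicing factor RBM39, which is then degraded. Genes needed for mitosis are switched on late in the cell cycle. Many carry in their promoters the cell cycle genes homology region (CHR, TTTGAA) near a CCAAT box. In resting cells these promoters are held silent by the DREAM complex, which needs the RB relatives p107 and p130, and in dividing cells they are activated by B-MYB and FOXM1. Senescent cells stop dividing and often secrete cytokines, chemokines and proteases, together called the senescence-associated secretory phenotype (SASP), many of whose genes are driven by NF-kB.

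To show the promoters behind the mitotic group, the 120 bases before the start are printed for the 3 mitotic genes with the highest ratios among those with a CHR within this stretch. For the inflammatory group the same stretch is printed for the 3 chemokine or NF-kB genes with the highest ratios and an NF-kB motif in it. They are RefSeq sequences on GRCh38.p14, each read 5′ to 3′ on the strand of its gene, with the motif matches on either strand in capitals. MKI67 lies on the minus strand (chr10:128126424-128126543), PLK1 on the plus strand (chr16:23678769-23678888) and DLGAP5 on the minus strand (chr14:55191586-55191705).
MKI67: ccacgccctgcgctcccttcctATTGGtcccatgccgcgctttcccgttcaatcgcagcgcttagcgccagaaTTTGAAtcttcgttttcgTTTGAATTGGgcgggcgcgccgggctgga
PLK1: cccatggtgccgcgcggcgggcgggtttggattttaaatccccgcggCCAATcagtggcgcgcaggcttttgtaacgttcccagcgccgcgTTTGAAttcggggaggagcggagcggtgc
DLGAP5: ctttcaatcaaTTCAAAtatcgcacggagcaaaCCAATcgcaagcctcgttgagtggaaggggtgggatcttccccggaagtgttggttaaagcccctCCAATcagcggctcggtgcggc

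In these 3 sequences the capitals mark TTTGAA and CCAAT or their reverse complements, and in MKI67 one CHR overlaps a CCAAT box by a single base. CXCL1 lies on the plus strand (chr4:73869273-73869392), CXCL3 on the minus strand (chr4:74038690-74038809) and CXCL11 on the minus strand (chr4:76036071-76036190), and here the capitals mark the NF-kB motif.
CXCL1: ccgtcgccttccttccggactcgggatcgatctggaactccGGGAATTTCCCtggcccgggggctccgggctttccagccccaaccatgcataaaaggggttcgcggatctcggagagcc
CXCL3: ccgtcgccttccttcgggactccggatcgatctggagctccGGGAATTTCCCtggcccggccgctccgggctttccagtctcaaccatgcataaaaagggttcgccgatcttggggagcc
CXCL11: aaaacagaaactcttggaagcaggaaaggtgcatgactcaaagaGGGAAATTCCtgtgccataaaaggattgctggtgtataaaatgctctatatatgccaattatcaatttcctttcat

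The gene totals were 12691481 reads in the palbociclib library and 16712174 in the indisulam library, with 12555908 in untreated cells and 14359529 in the combination. The markers were largely those of a mesenchymal-type triple-negative line. VIM was at 2642 to 4598 CPM, and ESR1, PGR and CDH1 were at no more than 1.95 CPM in any library. ERBB2, on the same list as these last, was expressed, at 143 CPM untreated, 137 with palbociclib, 110 with indisulam and 113 with both drugs. Its RNA level alone does not give the receptor status of the line. Of 6 leukocyte markers, PTPRC was at 12.5 CPM with palbociclib and 17.5 with indisulam and CD14 at 5.44 and 3.95, and CD3E had no reads. The endothelial marker PECAM1 was at 40.9 CPM with palbociclib and 17.5 with indisulam, and CDH5 and VWF were at no more than 1.81 in the 4 libraries. The erythroid markers were at no more than 0.08 CPM, and of 3 adipocyte markers only PLIN1 was above 1 CPM, at 2.28 with palbociclib and 1.38 with indisulam. Mitochondrially encoded genes took 7.33% of the palbociclib reads and 4.90% of the indisulam reads.

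Of the 11340 genes, 1371 were called (12.1%). Higher with indisulam were 751 (6.62%) and higher with palbociclib 620 (5.47%), and the median log2 ratio of all tested genes was 0.08. The balance between the directions turned with the scaling, with 655 against 738 genes under upper-quartile factors. Differences of at least 4-fold were found in 156 genes on the indisulam side and 142 on the palbociclib side, and of at least 8-fold in 41 and 48. The middle 90% of the log2 ratios lay between -1.05 and 1.16. As a yardstick for noise between libraries, the departure of the 4 libraries from additivity was used. For a typical gene it put an upper bound of 0.29 on the standard deviation of 1 log2 ratio, or 0.37 at 5 to 20 CPM. This holds if noise was independent between libraries, and single genes may vary more. A distance of 2 such bounds was 1.66-fold for genes of 5 to 20 CPM and no more than 1.47-fold above 20 CPM. For a typical gene the 2-fold limit thus lay outside it in every range of expression. Of 319 long noncoding RNA genes 36 were called on either side (22.6% in all), and of 10813 protein-coding genes 11.6% were called. The share called also varied with expression. It was 19.5% at 5 to 20 CPM, 9.26% at 20 to 100 CPM and 8.16% at 100 CPM or more. The 2 classes of genes were not matched for level, and the part of level in their difference was not tested.

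**Figure D1:**
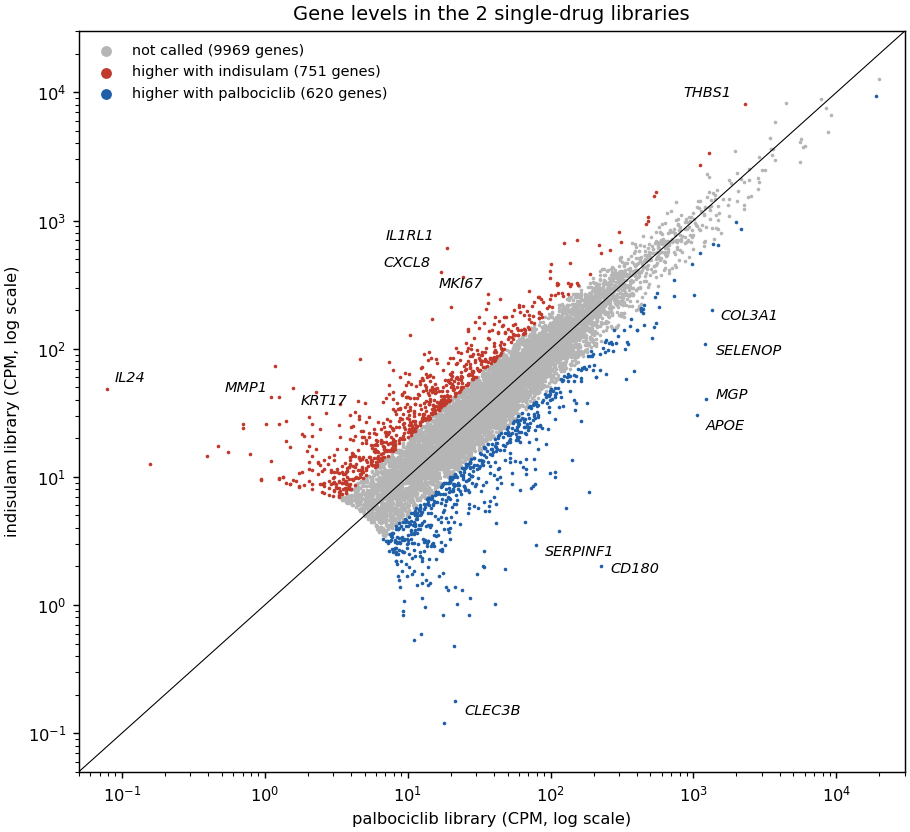
Level of each of the 11340 genes in the palbociclib library (x axis) and the indisulam library (y axis), in CPM on log scales, with the line of equal levels. Red points are the 751 genes called higher with indisulam and blue points the 620 called higher with palbociclib, with IL24 and CLEC3B far from the line and THBS1 at 8049 CPM with indisulam against 2289 with palbociclib.

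The mitotic genes differed in 1 direction. Of 53 tested mitotic kinase, kinesin and spindle genes, 42 were called higher with indisulam and none higher with palbociclib, and all 53 ratios were above 1. Their levels had a median of 19.1 CPM with palbociclib and 53.9 with indisulam, beside 36.2 in untreated cells and 37.8 in the combination. The palbociclib library was the lowest of the 4 for 51 of these 53 genes, against 3038 of all 11340 tested genes. The indisulam library was the highest for 41, against 2838. Members under 5 CPM with palbociclib, NEK2 among them and the lowest at 2.99, were tested only because of their indisulam level. The counts over this list are thus a description. In bulk RNA, a smaller share of cells in mitosis and less mitotic RNA in each such cell cannot be told apart.

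MKI67, which encodes the proliferation antigen Ki-67 (chr10:128096659-128126423), was at 126 CPM in untreated cells, 44.5 with palbociclib, 246 with indisulam and 129 with both drugs. The indisulam level was 5.53-fold the palbociclib level (log2 2.47, 2.34 to 2.60). The largest ratio of the group was that of NEK2, a kinase of the centrosome cycle, at 4.57 CPM with palbociclib and 29.7 with indisulam, or 6.49-fold. The kinesins KIF2C and KIF20A, motors that work on the spindle, followed at 6.23-fold and 5.80-fold. CCNA2, which encodes cyclin A2, was at 10.0 CPM with palbociclib and 55.3 with indisulam, and CDK1, the kinase it binds late in the cycle, stood at 23.2 and 82.2 CPM. The smallest differences were those of the phosphatase gene CDC25B, with a log2 ratio of 0.33, and ECT2, with 0.50. TOP2A, the topoisomerase that untangles sister chromatids, missed the call at 1.84-fold, with 321 CPM in untreated cells, 121 with palbociclib and 222 with indisulam.

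**Figure D2:**
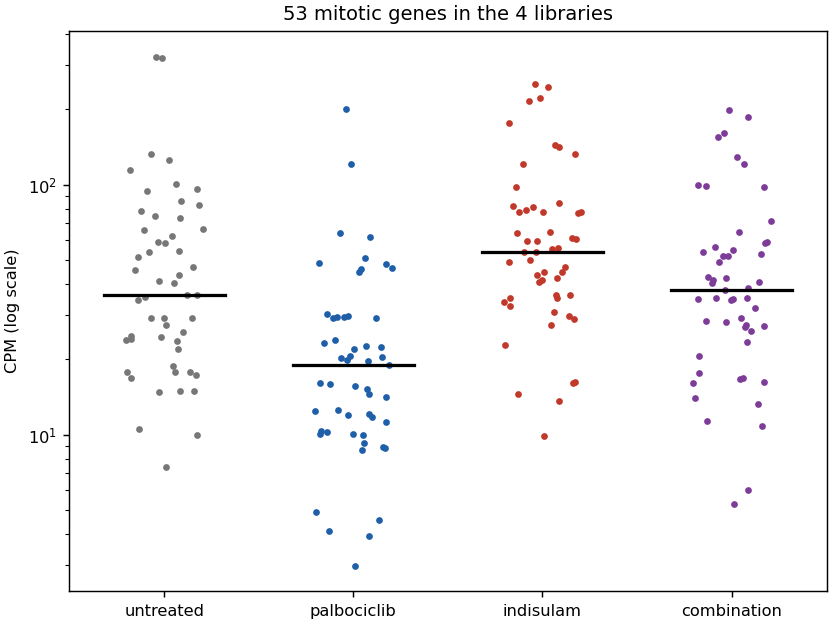
Levels of the 53 tested mitotic genes in the 4 libraries, in CPM on a log scale, with 1 point a gene and a bar at the median. The palbociclib points sit lowest, with a median of 19.1 CPM, and the indisulam points highest, with a median of 53.9.

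Promoters were found in the RefSeq table for 9123 of the tested genes and searched over 300 bases, 250 before to 50 after the start, on both strands. TTTGAA was found in 33 of the 46 mitotic promoters (71.7%) and CCAAT in 35 (76.1%), against 9.72% and 37.2% of all tested promoters. Among the 552 promoters of genes higher with indisulam 18.1% held TTTGAA, and among the 448 of genes higher with palbociclib 9.38% did. Read the other way, 11.3% of the 887 genes with TTTGAA were called higher with indisulam, against 5.49% of the 8236 without it, and 4.74% and 4.93% were called higher with palbociclib. Within the mitotic group the ratios of genes with and without the motif were close. The median log2 ratio was 1.70 for the 33 genes with TTTGAA and 1.75 for the 13 without it, and neither NEK2, KIF2C nor KIF20A held it in this window. The 33 promoters in that count came from a group chosen with these results known, and a match of letters does not show that a factor binds.

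The earlier steps of the cell cycle differed much less than mitosis. Of 41 S-phase genes 8 were higher with indisulam and 1 with palbociclib, with a median log2 ratio of 0.41. Of 45 replication licensing and fork genes 4 and 1 were called, with a median of 0.12, close to the 0.08 of all genes. CDT1, which loads the replicative helicase, was at 25.2 CPM untreated, 9.93 with palbociclib, 42.2 with indisulam and 13.4 with both drugs, a 4.26-fold difference between the single drugs. Its inhibitor geminin (GMNN) differed by 3.32-fold in the same direction, and RRM2, a subunit of ribonucleotide reductase, by 3.11-fold. The helicase subunit MCM2, in contrast, stood at 78.4 CPM with palbociclib and 67.0 with indisulam, both above the untreated 36.8, and MCM5 at 60.4 and 50.7 against 31.7. POLA1, the catalytic subunit of DNA polymerase alpha, was the S-phase gene called the other way, 2.78-fold higher with palbociclib. Among 36 homologous recombination and Fanconi genes, 5 were higher with indisulam, led by the helicase gene BLM at 3.00-fold, and none with palbociclib.

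The genes of the step that palbociclib blocks were less uniform. Of 22 tested cyclin, CDK and RB family genes, 3 were higher with palbociclib and all 3 were cyclins. CCND2 was at 20.7 CPM untreated, 51.9 with palbociclib and 15.4 with indisulam, or 3.36-fold higher with palbociclib. CCNE1 stood at 3.50, 14.7 and 5.27 CPM in the same order, or 2.78-fold higher with palbociclib. CCND1 was at 171, 449 and 218, or 2.06-fold higher with palbociclib, and at 530 in the combination. The 2 genes of this list called higher with indisulam were the repressor gene E2F7, at 2.27-fold, and CDKN2D, with a log2 ratio of 1.03.

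The kinase genes themselves were close. CDK2 was at 36.7 CPM with palbociclib and 34.8 with indisulam, CDK4 at 148 and 119, and CDK6 at 48.1 and 60.9, and all 3 were at a like level. RB1 (39.6 and 49.8 CPM) and E2F1 (13.1 and 14.4 CPM) were at a like level too, E2F1 with untreated cells at 6.13. The inhibitor gene CDKN1A, which encodes p21, was at 62.4 with palbociclib and 40.6 with indisulam, short of the call at 1.54-fold, with untreated at 61.8. CCNE2 was under the limit of expression, with 27 reads with palbociclib and 56 with indisulam and an interval of -0.03 to 1.38.

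Indisulam acts on splicing, and almost all genes of its own pathway fell short of the call. RBM39 mRNA was at 342 CPM untreated, 237 with palbociclib, 376 with indisulam and 305 with both drugs. The single drugs thus differed by 1.59-fold (log2 0.67, 0.60 to 0.73), short of the call, beside 1.47-fold for 2 noise bounds at its level. DCAF15 stood at 16.0 CPM with palbociclib and 21.2 with indisulam. Of 50 genes for RBM39, its ligase and splicing factors, 1 was called, PRPF3, at 47.4 and 99.8 CPM, while 31 were at a like level. Still, 41 of the 50 ratios were above 1, and the median log2 ratio was 0.29. Over all tested genes 6380 of 11340 ratios were above 1, the median was 0.08 and 52.2% were at a like level. Protein levels and splice forms were not measured by these gene counts.

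Cyclin H (CCNH), the partner of CDK7 in the CDK-activating kinase, was at 44.4 CPM in untreated cells and 45.1 with palbociclib, and at 24.5 with indisulam and 19.1 in the combination. The difference between the single drugs, 1.84-fold (log2 -0.88, -1.06 to -0.69), fell short of the call, beside 1.44-fold for 2 noise bounds at its level. The libraries with indisulam were the lower ones for this gene. CDK7 itself was at 48.9 with palbociclib and 77.0 with indisulam, and MNAT1, the assembly factor of that kinase, at 18.4 and 25.7. Of the 8 genes of this kinase and of TFIIH, the helicase gene ERCC2 was 2.50-fold higher with indisulam and the core subunit gene GTF2H1 was 2.05-fold higher with palbociclib. The sources used here do not give the strand setting used in counting, so that reads from genes overlapping CCNH (chr5:87318416-87412930) on the other strand may have been lost or added.

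Genes for inflammatory ligands held large differences in both directions. Only 8 of 18 genes on the chemokine list reached 5 CPM. Of these 8, 6 were higher with indisulam, 1 was higher with palbociclib, and the median log2 ratio was 2.25. CXCL8, which encodes the neutrophil attractant interleukin-8 (chr4:73740519-73743716), was at 9.0 CPM untreated, 17.2 with palbociclib, 396 with indisulam and 368 with both drugs. CXCL1 followed at 1.04, 2.29, 45.6 and 86.8 CPM, a 19.95-fold difference between the single drugs, and CXCL3 was 8.53-fold and CXCL11 7.83-fold higher with indisulam. CXCL2 (2.80-fold) and CCL5 (2.89-fold) completed the group. CXCL12, the ligand of CXCR4, ran the other way, at 93.4 CPM with palbociclib against 18.0 with indisulam and 27.2 untreated. So did CXCL13, a B-cell attractant gene that the list does not hold, at 21.1 CPM with palbociclib against 0.479 with indisulam and 13.5 untreated, a 44.1-fold difference. CXCL1, CXCL3 and CXCL11 were under 5 CPM with palbociclib and were tested only because of their indisulam level, so the count over this list is a description. For 5 of the 6 genes on the indisulam side the combination lay above the indisulam library, and for CXCL8 below it.

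Among 24 interleukin and colony-stimulating factor genes with their receptors, 8 were higher with indisulam and 2 with palbociclib. Several were under 5 CPM with palbociclib and were tested only because of their indisulam level. Among them were IL24, IL1A, IL1B, CSF3, IL6, LIF and CSF2. This count too is thus a description, as are those of the SASP and Purcell lists given further on. IL1A was at 1.11 CPM untreated, 0.709 with palbociclib (9 reads), 24.1 with indisulam and 24.5 in the combination, and IL1B at 1.83, 1.02, 26.0 and 40.9. CSF3, the granulocyte growth factor gene, was at 0.473 with palbociclib (6 reads) and 17.4 with indisulam. IL24, a cytokine gene of the interleukin-10 family (chr1:206897443-206904139), had 2 reads in untreated cells, 1 with palbociclib, 805 with indisulam and 217 with both drugs. With a single read on one side its log2 ratio was 9.26, with an interval from 6.77 to 14.56. IL6 (6.19-fold), LIF (5.29-fold), CSF2 (4.43-fold) and the receptor gene IL7R were also higher with indisulam. The 2 on the palbociclib side were both receptors, IL13RA2 at 8.48-fold and IL6R at 2.50-fold.

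IL1RL1, the receptor of interleukin-33, was the most abundant of the 10 genes with a symbol and the highest ratios. It stood at 65.9 CPM in untreated cells, 18.8 with palbociclib, 616 with indisulam and 171 with both drugs, a 32.9-fold difference (log2 5.04, 4.85 to 5.23). Among NF-kB subunit and feedback genes, 7 of 24 were higher with indisulam and none with palbociclib, with a median log2 ratio of 0.67. TNFAIP3, which encodes the feedback inhibitor A20, was at 22.7, 40.1, 156 and 182 CPM in untreated, palbociclib, indisulam and combination, and BIRC3 at 36.4, 59.9, 221 and 189. The RNase gene ZC3H12A differed by 3.86-fold. The NF-kB motif was in 4 of the 6 chemokine promoters that RefSeq gave, against 6.58% of all promoters, but over all tested genes it did not go with the calls. It was found in 6.88% of promoters of genes higher with indisulam and 7.59% of those higher with palbociclib. The AP-1 motif TGANTCA was in 4.45% of all promoters, 8.15% of those of genes higher with indisulam and 6.03% of those higher with palbociclib. The E2F motif TTTCGCGC was in 1.02% of all promoters, and the sterol response element motif in 3 promoters.

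The senescence gene lists that the study took from earlier work, named by their first authors, differed among themselves. Of 18 tested members of the Hernandez SASP list 13 were higher with indisulam and 1, IGFBP2, with palbociclib, with a median log2 ratio of 1.51. The Purcell list had 14 of 32 higher with indisulam and 2 with palbociclib (median 0.68). The other lists were close to balance. The Casella list had 4 and 2 of 32 (median -0.23), the Hernandez list 0 and 2 of 31 (-0.03) and the Fridman list 8 and 6 of 62 (0.06). The called members of the SASP list were largely the chemokine and interleukin genes already named, with MMP1, the interstitial collagenase, at 1.26 CPM with palbociclib, 41.8 with indisulam and 130 with both drugs. Chromatin and lamin genes tied to senescence were higher with indisulam in 5 of 14 and higher with palbociclib in none (median 0.87). HMGA1, an architectural chromatin protein gene, was at 382 CPM untreated, 101 with palbociclib, 456 with indisulam and 314 with both drugs. LMNB1, whose loss is used as a senescence marker, was at 41.2, 19.0, 43.0 and 26.1 CPM in the same order, and HMGB2 at 109, 37.0, 137 and 54.3.

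**Figure D3:**
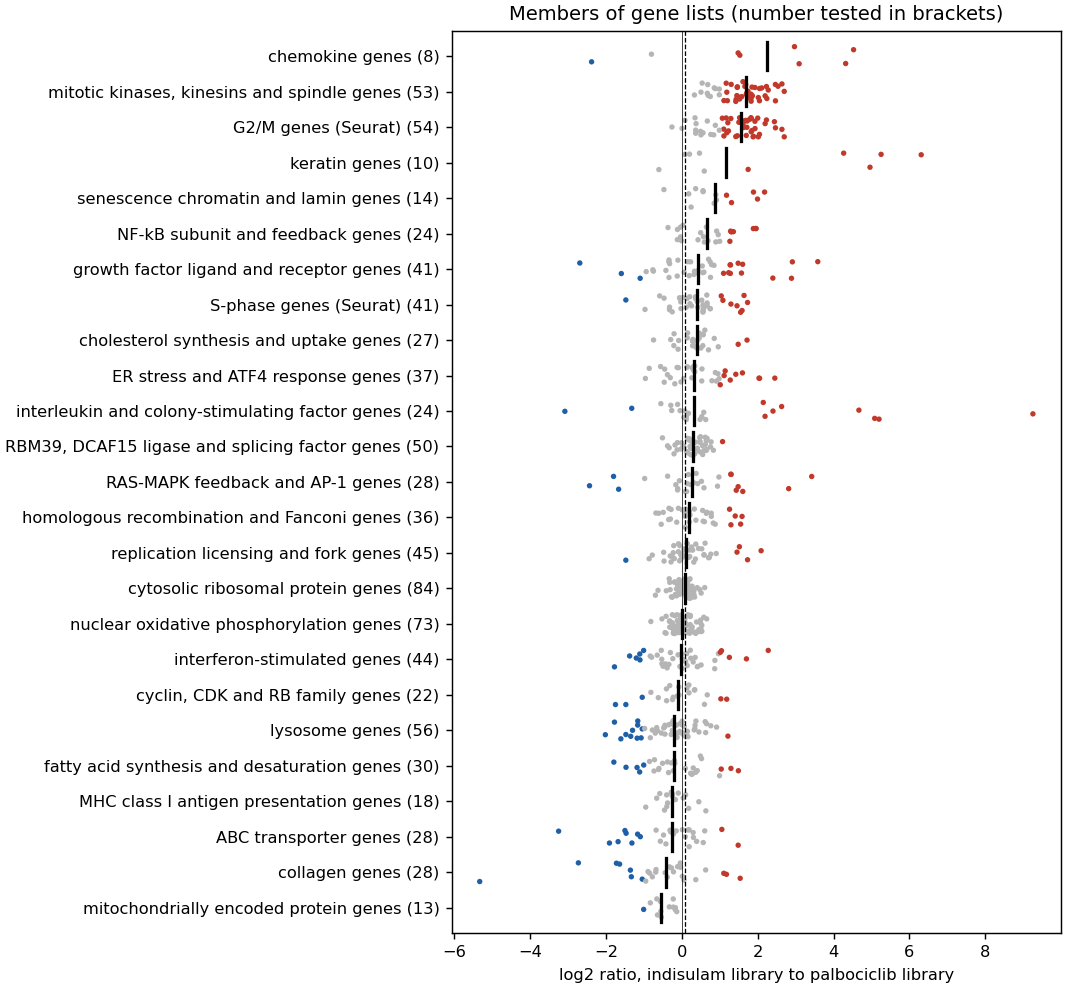
Log2 ratio of indisulam to palbociclib for the tested members of 25 gene lists, with 1 point a gene, a black bar at the median of each list and a dashed line at the median of all tested genes (0.08). Red points were called higher with indisulam and blue points higher with palbociclib, with mitotic genes wholly to the right of 0 and mitochondrially encoded genes wholly to the left.

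The stress and growth factor lists also held genes that were higher with indisulam. Of 37 ER stress and ATF4 genes 9 were higher with indisulam and none with palbociclib (median 0.33). PHGDH, the first enzyme of serine synthesis, was at 152 CPM untreated, 20.6 with palbociclib, 85.4 with indisulam and 83.1 with both drugs, and ASNS, asparagine synthetase, at 140, 21.9, 58.7 and 54.6. For both enzymes each treated library lay below the untreated one, and palbociclib lowest. ATF3 (5.47-fold) and STC2 (4.10-fold), in contrast, lay with indisulam above all other libraries but the combination, and for ATF3 above that too. Of 28 RAS-MAPK feedback and AP-1 genes, 7 were higher with indisulam, with MAFF at 10.7-fold and ETV4 at 7.04-fold, and 3 with palbociclib, with FOSB at 5.41-fold. Of 41 growth factor and receptor genes 12 were higher with indisulam and 3 with palbociclib. Over all tested genes these shares were 6.62% and 5.47%. INHBA, AREG and, on the ER stress list, ATF3 were under 5 CPM with palbociclib. They were tested only because of their indisulam level, so the counts of both lists are descriptions. The activin subunit gene INHBA was at 1.10 and 13.2 CPM and the stress cytokine gene GDF15 at 5.04 and 38.0, while BMP4 was at 67.6 with palbociclib and 10.5 with indisulam. VEGFA, the angiogenic factor gene, was at 164 CPM untreated, 217 with palbociclib, 646 with indisulam and 397 with both drugs.

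Of 55 keratin genes 10 were tested, 5 were higher with indisulam and none with palbociclib. KRT17, KRT34, KRT81 and KRT86 were under 5 CPM with palbociclib and entered through their indisulam level, so that they had to differ and the count lends no support to a direction of the family. The median log2 ratio of the tested keratin genes was 1.17, and 0.53 with genes of 1 CPM or more. KRT17, a keratin of basal and stressed epithelium, was at 1.19 CPM untreated, 1.58 with palbociclib, 49.1 with indisulam and 82.0 with both drugs. KRT34 had 2 reads with palbociclib and 209 with indisulam, with a log2 ratio of 6.31 and an interval from 4.44 to 9.37. KRT86 and KRT81 were at 1.10 and 1.42 CPM with palbociclib and 42.1 and 27.3 with indisulam, but these neighbours are near-identical copies, so both values are uncertain. The simple epithelial keratins KRT8 and KRT18, by far more abundant, were at a like level, at 416 and 185 CPM with palbociclib and 575 and 213 with indisulam. The tight junction gene CLDN1 differed by 5.77-fold (7.96 and 46.0 CPM), and the laminin subunit gene LAMB3 by 3.54-fold, both higher with indisulam.

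On the palbociclib side, APOE, which encodes apolipoprotein E (chr19:44905791-44909393), was at 216 CPM in untreated cells, 1055 with palbociclib, 30.3 with indisulam and 60.6 with both drugs (log2 -5.12, -5.25 to -4.99). MGP, the matrix Gla protein gene that restrains calcification (chr12:14880864-14885857), was at 160, 1228, 40.9 and 108 CPM in the same order. Both were far above untreated with palbociclib alone and below it in the libraries with indisulam. SELENOP, the plasma selenium carrier gene, showed another order, at 1277 CPM untreated and 1206 with palbociclib, against 109 with indisulam and 73.6 in the combination. Its 11.02-fold difference thus went with a palbociclib level near that of untreated cells and a low indisulam level. COL3A1, the fibrillar collagen III gene, was at 168 CPM untreated, 1339 with palbociclib, 202 with indisulam and 179 with both, so that here the palbociclib library alone was high.

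The other genes of the 10 lowest ratios among genes with a symbol were lower in level. CD180, which encodes a Toll-like receptor relative of B cells, was at 43.4 CPM untreated, 226 with palbociclib, 2.03 with indisulam and 16.3 with both drugs. PTGDS, the lipocalin-type prostaglandin D synthase gene, was at 115 with palbociclib and 3.77 with indisulam, and SERPINF1, the gene of pigment epithelium-derived factor, at 79.1 and 2.93. CLEC3B, which encodes tetranectin, had 272 reads with palbociclib and 3 with indisulam, a log2 ratio of -6.90 with an interval from -9.19 to -5.34. SESN3, a sestrin gene, differed by 25.1-fold and COL14A1 by 40.2-fold. C4B (31.98-fold) and its near-identical copy C4A (18.2-fold) were both higher with palbociclib, and both values are uncertain, since reads that fit either copy went to neither. CHI3L1 (24.1-fold), BGN (24.0-fold) and the complement gene C7 (21.1-fold) were picked out after their values were seen, and all were higher with palbociclib. PECAM1 was 2.33-fold higher with palbociclib as well, and its part in these differences was not tested.

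**Figure D4:**
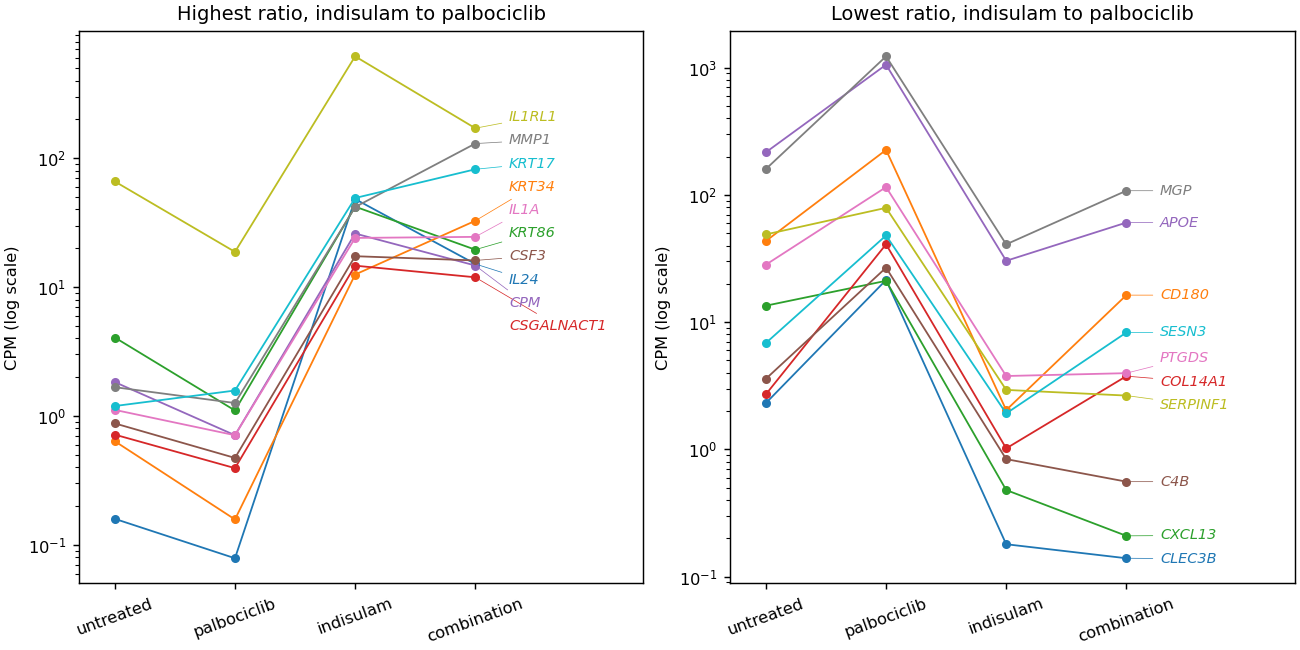
CPM on a log scale in the 4 libraries for the 10 genes with a symbol that had the highest (left) and the 10 that had the lowest (right) ratio of indisulam to palbociclib among called genes, with lines that join the values of 1 gene. On the left the indisulam and combination points lie above both others for all 10 genes, and on the right the palbociclib point of every gene lies above its indisulam point, with MGP at 1228 and 40.9 CPM.

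Of 28 tested collagen genes 7 were higher with palbociclib and 3 with indisulam, with a median log2 ratio of -0.41. Over all tested genes 5.47% were higher with palbociclib and 6.62% with indisulam. COL14A1 and COL4A3 were under 5 CPM with indisulam and were tested only because of their palbociclib level. The count over this list is thus a description. The types differed. COL1A2 was 2.56-fold higher with palbociclib, whereas its chain partner COL1A1 was at a like level, at 2806 and 2148 CPM. The basement membrane chains COL4A1 and COL4A2, which share a promoter region, were 2.90-fold and 2.26-fold higher with indisulam, and their relative COL4A3 was 3.30-fold higher with palbociclib. Lysosomal genes gave 11 of 56 higher with palbociclib and 1 higher with indisulam, with 31 at a like level and a median of -0.20. The cathepsin gene CTSF was at 28.9 CPM untreated, 96.1 with palbociclib and 23.8 with indisulam, and the acid alpha-glucosidase gene GAA at 229, 344 and 113. The 1 lysosomal gene on the other side was the cholesterol exporter NPC1, at 2.32-fold. Of 28 ABC transporter genes 8 were higher with palbociclib and 2 with indisulam. ABCA9 was the furthest, at 41.5 and 4.37 CPM, and was tested only because of its palbociclib level. The drug exporter ABCC2 was at 320 CPM untreated, 220 with palbociclib and 68.8 with indisulam.

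Single genes of lipid synthesis differed in how close their levels were. FASN, fatty acid synthase, was at 982 CPM in untreated cells, 285 with palbociclib, 303 with indisulam and 185 with both drugs, a like level in both single-drug libraries. SCD, the stearoyl-CoA desaturase gene, was at 1206 untreated, 227 with palbociclib and 557 with indisulam, or 2.45-fold higher with indisulam. Of 30 fatty acid genes 3 were higher with indisulam and 5 with palbociclib, with ACSL5 at 208 and 60.1 CPM. Over all tested genes 6.62% were higher with indisulam, 5.47% were higher with palbociclib and 52.2% were at a like level. Of 27 cholesterol genes 2 were called, both higher with indisulam, and 14 were at a like level (median 0.39), near those shares. INSIG1, a sterol sensor partner and SREBP target, was one of them, at 238 CPM untreated, 36.6 with palbociclib, 121 with indisulam and 33.8 with both drugs. The other was the sterol exporter gene ABCG1, at 2.80-fold.

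Interferon, MHC and p53 genes did not divide the drugs as groups. Of 44 interferon-stimulated genes 5 were higher with indisulam and 6 with palbociclib, with a median log2 ratio of -0.03. HERC5 (4.85-fold) and OASL (3.25-fold) led one side and IFI44L (3.43-fold) the other. HERC5, at 4.73 CPM with palbociclib, was tested only because of its indisulam level. None of 18 MHC class I genes was called and 14 were at a like level, with B2M at 3018 and 2485 CPM. Of 29 p53 target genes 3 were higher with indisulam and 5 with palbociclib. PMAIP1, which encodes the BH3-only protein NOXA, was 5.89-fold and GDF15 7.53-fold higher with indisulam, while BTG2 was 4.30-fold higher with palbociclib. The median of this list was 0.01 and changed sign with the scaling.

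Housekeeping groups held almost no calls. A like level is easier to reach for abundant genes. The median interval width was 0.67 on the log2 scale at 5 to 20 CPM and 0.17 at 100 CPM or more. Over all tested genes 52.2% were at a like level and 12.1% were called. None of 84 cytosolic ribosomal protein genes was called and 80 were at a like level (median 0.09). None of 73 nuclear oxidative phosphorylation genes was called and 62 were at a like level (median 0.00), and for 37 proteasome genes these numbers were 0 and 32 (median 0.20). None of 20 aminoacyl-tRNA synthetase genes and none of 17 heat shock genes was called, with medians of 0.31 and -0.34. The 13 mitochondrially encoded genes differed from the nuclear ones of the same complexes. All 13 were lower with indisulam in value, with a median of -0.54, and 1 was called, MT-CO1, a subunit of cytochrome c oxidase, at 13677 CPM untreated, 18920 with palbociclib, 9413 with indisulam and 16118 with both drugs. Their summed level was 62676 CPM with palbociclib and 41248 with indisulam, with untreated cells at 50219 between them.

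Several genes stood far from untreated cells in both single-drug libraries and yet close to each other. Since the untreated library is shared by both comparisons with it, these genes are given by their levels alone. POSTN, which encodes the matrix protein periostin, was at 33.1 CPM untreated, 178 with palbociclib, 185 with indisulam and 218 with both drugs (log2 ratio of the single drugs 0.06, -0.02 to 0.14). TRAF1, a TNF receptor adaptor gene, was at 13.1, 55.7, 51.3 and 96.9, and COL5A3 at 6.13, 27.2, 26.6 and 24.9. GAS6-DT, a divergent transcript, stood at 10.8 and 12.03 with the single drugs and at 31.7 in the combination, and DUXAP9, a pseudogene with near copies, at 20.6 and 25.4. In the low direction, TSC22D3, the glucocorticoid-induced leucine zipper gene, was at 1618 CPM untreated, 334 with palbociclib, 386 with indisulam and 116 with both drugs. AOC3, an amine oxidase gene, was at 142, 12.3, 13.4 and 6.89, the glycolytic gene ALDOC at 41.0, 11.2, 11.2 and 7.03, and SERPINB3 at 35.2, 8.43, 9.45 and 9.82. For 4 of these 5 low genes the combination was lower than either single drug, and SERPINB3 was the exception.

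**Figure D5:**
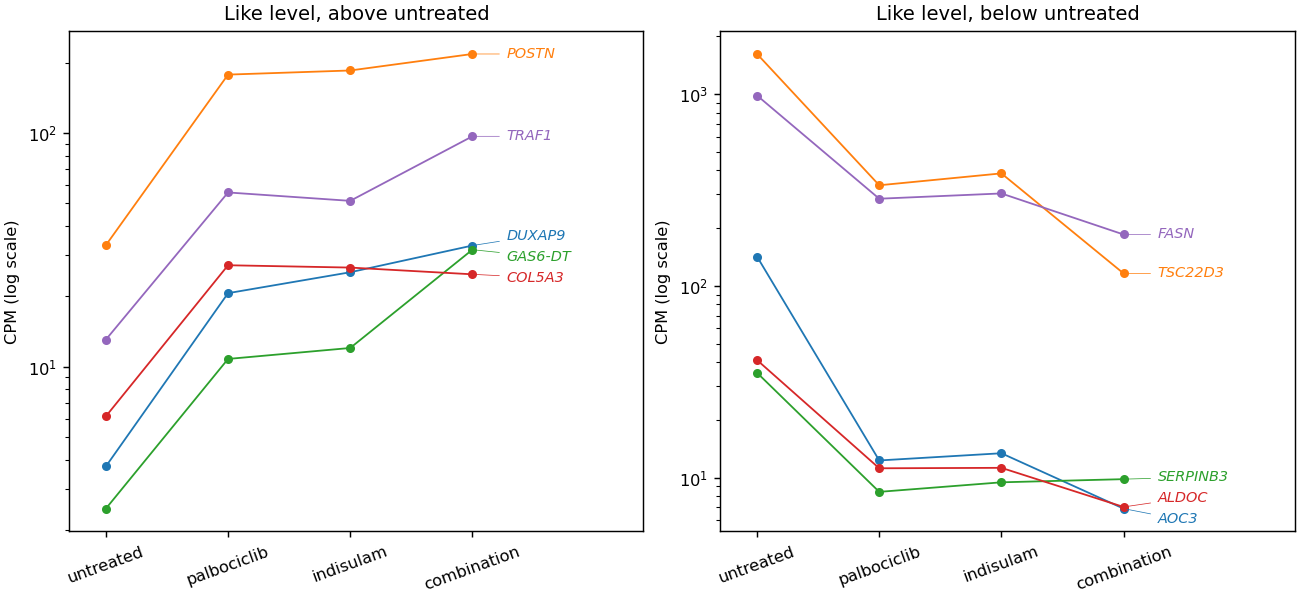
CPM on a log scale in the 4 libraries for genes at a like level with palbociclib and indisulam that stood furthest above (left, 5 genes) and below (right, 5 genes) untreated cells, with lines that join the values of 1 gene. The 2 single-drug points of each gene lie side by side, as for FASN at 285 and 303 CPM.

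In the remaining lists the share of genes called varied. Over all tested genes 6.62% were higher with indisulam and 5.47% with palbociclib, or 12.1% in all. Of 320 zinc finger genes with ZNF symbols 11 were higher with indisulam and 8 with palbociclib (5.94% in all). Of 163 solute carrier genes these numbers were 9 and 10 (11.7% in all). The arginine transporter gene SLC7A2 was the furthest of these, at 56.2 CPM untreated, 24.3 with palbociclib and 363 with indisulam. Of 14 histone genes 3 were higher with indisulam and 1 with palbociclib. Of 26 NRF2 and metallothionein genes, none was higher with indisulam and 2 were higher with palbociclib, ABCC2 and the thioredoxin reductase gene TXNRD1 (1370 and 655 CPM). Higher with indisulam and with palbociclib were 5 and 3 of 23 integrin and laminin genes and 3 and 3 of 22 contractile genes. These numbers were 4 and 4 of 24 protease and serpin genes and 1 and 1 of 15 junction genes. In all, 34.8%, 27.3%, 33.3% and 13.3% of these lists were called. Glycolysis and hypoxia genes gave 4 and 0 of 31 and ribosome biogenesis genes 2 and 0 of 43. Among snoRNA host genes 1 and 0 of 16 and among BCL2 family genes 1 and 0 of 13 were called. The shares called in these lists were 12.9%, 4.65%, 6.25% and 7.69%. Among LINC noncoding RNA genes 6 of 59 were higher with indisulam and 13 with palbociclib (median -0.25, and 0.20 without a filter). LINC02056 and LINC02957 were under 5 CPM with palbociclib and LINC02997 with indisulam. They were tested only because of the other library, as were TNNT1, MMP1, SERPINF1, SLC16A6, ZNF185 and NEK2. The counts of lists with such genes are descriptions. Of the G2/M list, which overlaps the mitotic list and holds NEK2, 39 of 54 were higher with indisulam and none with palbociclib. Of 26 YAP and TEAD genes 3 were higher with indisulam, among them the tissue factor gene F3 (478 and 1074 CPM). THBS1, the thrombospondin gene, was the most abundant gene called higher with indisulam among those named, at 3267 CPM untreated, 2289 with palbociclib, 8049 with indisulam and 5261 with both drugs.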

How the data were processed

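RNA of SUM159 cells was sequenced by the authors as stranded poly(A) libraries, 1 per condition. Per the submitters' processing notes, reads were aligned with TopHat2 2.1 and counted with HTSeq on GRCh38. The annotation release, the strand setting and any pooling of duplicates were not given in the sources used here. The labels name Trizol for RNA extraction, the methods of the study a column kit. The deposited values were raw counts per Ensembl gene (60279 genes), without normalization. Per-chromosome tallies of ambiguous, multiply aligned and unassigned reads stayed out of the totals. Multiply aligned reads went to no gene, so near-identical copies were undercounted.

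Counts were divided by the summed gene counts of their library to give CPM, with no pseudocount. Genes were kept when palbociclib and indisulam together averaged 5 CPM or more. Just outside this limit lay 1 gene with 76 and 67 reads and just inside lay EPOR, with 70 and 75. The ratio of CPM was given an exact 95% interval (conditional binomial, Clopper-Pearson, scipy 1.17.1). Read totals differed, and a floor of 3 reads was 0.236 CPM with palbociclib and 0.180 with indisulam. The reads carry no molecular identifiers and may be PCR copies, so intervals and floors cover counting error only. The steps were tested on simulated data. The noise bound was the robust spread over genes of log2 combination plus log2 untreated minus both log2 single-drug levels, divided by the square root of 2. It holds any drug interaction, and is an upper bound for a typical gene if noise was independent between libraries.

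The members, the 49 gene lists and families and the 6 marker lists were chosen with earlier results of these data known. Named genes were the 10 highest and 10 lowest ratios among called genes with a symbol (a gene without one at a log2 ratio of -7.23, with 2 indisulam reads and an interval from -10.28 to -5.36, and another at 5.96 were thus passed over), the 5 highest and 5 lowest at 100 CPM or more, up to 3 called members of each list (otherwise the 2 most abundant), the 5 like-level genes furthest above and below untreated, and genes of the drugs' pathways. Other genes were named after their values were seen, mainly to fill out the called members of a list. Of the list symbols, 4 matched no identifier (SOD2, SNHG4, ESPST12 and ITG53). Positions are from GENCODE 44 (GRCh38), counted from 1. Alternatives included TMM and upper-quartile factors (edgeR 4.0.16), DESeq2 1.42.0 size factors and other filters.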

Additional observations from a re-analysis of the deposited data

Results flagged for a closer look

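Of 3 classes of reads outside the gene counts, which enter no comparison given here, 2 were above the untreated level in both single-drug libraries. Reads aligned to more than 1 place made up 6.838% of all tallied reads with palbociclib and 6.529% with indisulam, against 6.456% in untreated cells. Reads in no gene made up 0.6625% with palbociclib and 0.694% with indisulam, against 0.6147% in untreated cells. Reads that fell in more than 1 gene were below the untreated 2.627%, at 2.575% with palbociclib and 2.553% with indisulam. The differences are larger than the binomial counting error, but with 1 library each the spread between libraries is not known.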

How the results depend on the processing

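No paired analysis was possible because each condition had 1 library and no replicate numbers, and for the same reason none could be left out. The main limit is the missing replicate: intervals cover counting error, and dose and time are uncertain. The split of calls depended on the scaling. Against 751 genes higher with indisulam and 620 with palbociclib (54.8% of calls on the indisulam side), the share was 47.02% with upper-quartile factors (655 and 738) and 49.5% with DESeq2 factors (679 and 692), and TMM factors gave 697 and 675. Counts moved with the limits used. They were 1257 and 1145 at 1 CPM or more, 420 and 298 at 20 CPM or more, 1710 and 1529 without a filter, 1897 and 1485 at 1.5-fold and 294 and 230 at 3-fold. Like-level genes fell from 5922 to 2450 under the narrower limit of likeness.

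List medians kept their direction except where said here. The scalings shifted every ratio by -0.04 to -0.08, which changed the sign of 5 medians near 0 (Fridman, NRF2 and metallothionein, glycolysis and hypoxia, p53 and protease lists). Mitochondrially encoded genes had medians of -0.58 with TMM factors, -0.62 with upper-quartile factors, -0.59 with DESeq2 factors and -0.58 without mitochondrial reads in the totals. Upper-quartile factors gave 0.16 for contractile, 0.0075 for ribosomal protein and 0.51 for keratin genes, and DESeq2 factors 0.037 for ribosomal protein genes. At 1 CPM or more the medians were 2.62 for chemokine, -0.56 for collagen and 0.53 for keratin genes. At 20 CPM or more they were 1.23 for G2/M, 2.92 for chemokine, 0.078 for interleukin, 0.34 for p53, 0.30 for Purcell, 1.28 for Hernandez SASP, -0.68 for collagen and 0.53 for keratin genes. Without a filter they were 0.60 for interleukin, 0.16 for NRF2 and metallothionein, 0.24 for BCL2 family, 1.11 for Purcell and 0.20 for LINC genes, and with a pseudocount of 1 CPM 1.89 for chemokine genes. Fewer or more genes were tested under these filters, and other causes were not tested. Of the named genes, FBL lost its call under all 4 scalings and PRPF3 under upper-quartile factors.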
